A study of Mus musculus with 12 samples.

Results

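The mRNA levels of 78 genes of the ubiquitin system were compared in mouse naïve CD8+ T cells: the 32 genes whose symbols begin with Ube2, most of which encode ubiquitin conjugating enzymes (E2 enzymes), and the 46 genes whose symbols begin with Usp and a digit, most of which encode deubiquitinases of the ubiquitin specific protease family. They were taken by symbol alone from the 14323 genes counted, leaving out Usp18, and all 78 were found in the GENCODE M21 annotation. The cells came from spleens of 3 mice of wild type genotype, were sorted as TCRβ+ and CD8+ cells that carried CD62L and lacked CD44, and were cultured for 6 h in coated wells in 4 conditions. In the unstimulated conditions the wells carried no anti-CD3, and held either isotype control alone or anti-LAIR-1 (clone 2C7, an agonistic antibody against the inhibitory receptor LAIR-1) with isotype. In the stimulated conditions they carried 2.5 µg/ml anti-CD3, which ligates the T cell receptor complex, together with 2.5 µg/ml isotype control or 2.5 µg/ml anti-LAIR-1. Each condition held 1 library from each of the same 3 mice, 12 libraries in all. No co-stimulatory antibody is named for these wells, and the sorted cells of each mouse were divided over them.

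Total counts per library ranged from 1781218 to 7725545, and the median was 2304214 in unstimulated cells with isotype and 3548881 with anti-LAIR-1, and 4883760 and 6204054 in the same order among stimulated cells, so that the stimulated groups were sequenced more deeply. In CPM, the counts scaled to a library's total, 3 counts were worth 0.388 to 1.68, and this limit covers counting error only. The summed level of 6 genes known to respond to T cell receptor ligation (Cd69, Il2ra, Nr4a1, Myc, Irf4, Egr2) was between 244 and 284 CPM in the unstimulated libraries and between 2193 and 2748 CPM in those with anti-CD3. The summed level of 7 CD8+ T cell identity genes lay between 5244 and 5865 CPM without anti-CD3, between 1885 and 2019 CPM with anti-CD3 and isotype, and between 2419 and 2846 CPM with anti-CD3 and anti-LAIR-1. Markers of other cells were low in all libraries: the 5 B cell markers in the file summed to at most 10.1 CPM, the pair of NK cell markers to at most 1.02 CPM and the pair of CD4+ T cell markers to at most 1.74 CPM. The 5 myeloid markers measured summed to between 50.0 and 64.9 CPM without anti-CD3 and between 27.0 and 41.3 CPM with it. Csf1r was at 0 in the libraries with anti-CD3 and in the unstimulated libraries with anti-LAIR-1. The sums in those libraries therefore came from other myeloid markers of the list. Lyz2 and Adgre1 are not among the genes counted. Mitochondrial genes held 17.6% to 20.9% of the counts without anti-CD3 and 11.5% to 13.2% with it. The part of these differences in the results was not tested beyond the fits that left out the mitochondrial genes or thinned all libraries to 1 depth.

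Ubiquitin is activated by an E1 enzyme, passed to the active cysteine of an E2 enzyme and joined to a target with the help of an E3 ligase. The E2 has a large part in deciding the kind of chain that is built, and some E2 enzymes carry NEDD8 in place of ubiquitin. Ubiquitin specific proteases remove ubiquitin from targets or trim chains, and so work against the ligases. In T cells, ubiquitin chains carry the signal from the T cell receptor to NF-kB, and control the turnover of signalling proteins.

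The symbols did not match the enzyme classes in every case. Ube2cbp (also called Ube3d) encodes a protein that binds an E2 and is not itself an E2. Ube2v1 and Ube2v2 encode E2-like partners without the active cysteine. Usp6nl encodes a GTPase activating protein, and Usp39 a splicing factor without protease activity. They were kept in the counts, and counts without them are given beside the main ones.

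To show the genes with the widest contrasts, the 180 bases before the first start that RefSeq lists (build GRCm38.p6) were read for 6 of them, chosen from their values: the paralogues Ube2a and Ube2b, which moved in opposite directions with anti-CD3, Ube2f and Ube2h, the conjugating enzymes that rose and fell most, and Usp36 and Usp28, the Usp genes that rose and fell most. The Ube2a sequence is chrX:36874115-36874294 on the plus strand, Ube2b chr11:52000787-52000966 on the minus strand, Ube2f chr1:91250124-91250303 on the plus strand, Ube2h chr6:30304540-30304719 on the minus strand, Usp36 chr11:118290245-118290424 on the minus strand and Usp28 chr9:48985205-48985384 on the plus strand. Each is written 5′ to 3′ on the strand of its gene and ends at the base before the start. Capitals mark every match, on either strand, to 6 motifs: E-box CACGTG, AP-1 TGACTCA, CRE TGACGTCA, ETS CCGGAAG, FOXO GTAAACA and NFAT GGAAAA.
Ube2a: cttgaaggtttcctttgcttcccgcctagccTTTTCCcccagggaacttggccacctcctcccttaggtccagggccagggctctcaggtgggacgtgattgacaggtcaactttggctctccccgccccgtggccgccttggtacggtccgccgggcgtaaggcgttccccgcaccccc
Ube2b: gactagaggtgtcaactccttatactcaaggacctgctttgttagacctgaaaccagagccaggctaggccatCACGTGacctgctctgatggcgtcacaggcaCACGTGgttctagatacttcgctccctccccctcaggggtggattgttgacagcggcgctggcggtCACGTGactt
Ube2f: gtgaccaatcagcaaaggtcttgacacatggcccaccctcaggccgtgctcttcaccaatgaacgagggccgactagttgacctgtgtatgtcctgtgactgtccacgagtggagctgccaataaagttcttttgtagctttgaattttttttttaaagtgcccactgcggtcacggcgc
Ube2h: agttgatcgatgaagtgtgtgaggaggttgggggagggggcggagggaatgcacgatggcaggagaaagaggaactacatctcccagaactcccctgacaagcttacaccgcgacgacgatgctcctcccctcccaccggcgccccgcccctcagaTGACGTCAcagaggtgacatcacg
Usp36: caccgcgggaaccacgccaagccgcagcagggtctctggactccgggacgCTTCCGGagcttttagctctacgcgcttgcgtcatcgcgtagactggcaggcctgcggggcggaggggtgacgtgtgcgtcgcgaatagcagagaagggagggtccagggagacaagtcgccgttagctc
Usp28: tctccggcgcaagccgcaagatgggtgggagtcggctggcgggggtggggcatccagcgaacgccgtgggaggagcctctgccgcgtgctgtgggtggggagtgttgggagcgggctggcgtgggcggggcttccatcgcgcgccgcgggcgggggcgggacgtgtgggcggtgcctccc

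The Ube2b sequence held the E-box 3 times, starting 107, 76 and 10 bases before the start, while that of Ube2a held no E-box and 1 NFAT match, 149 bases before the start. GENCODE M21 starts Ube2a earlier, at chrX:36873900, so that the Ube2a window lies inside the gene as annotated there. The Ube2b window lies before the GENCODE start of its gene, chr11:52000762, so the 2 windows are not alike. The Ube2h sequence held the CRE letters 24 bases before the start, and the Usp36 sequence an ETS match 130 bases before it. Those of Ube2f and Usp28 held none of the 6 motifs in this window, and the Usp28 sequence was 76.1% G and C. Over the first listed starts of 27025 genes, 4.83% of the windows of this length held the E-box, 1.52% the CRE, 6.13% the ETS motif and 14.7% the NFAT motif. Of the 78 genes, 60 had a listed start, and 6 of these windows held the E-box (10%), 1 the CRE (1.67%), 10 the ETS motif (16.7%), 8 the NFAT motif (13.3%) and 0 the AP-1 and FOXO motifs, against 3.29% and 2.16%. Among the genes called higher with anti-CD3 and isotype the ETS motif was in 4 of 21 windows, and among those called lower in 2 of 14. A match is a run of letters and not a measured binding site.

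The summed mRNA level of the conjugating enzymes stood higher with anti-CD3, while that of the proteases depended on the scaling (the plot of class totals, scaled by TMM). Summed over the 32 genes, the Ube2 level was 3374 ± 72.8 CPM (normalized by TMM; SD, n = 3) in unstimulated cells with isotype and 3408 ± 15.5 CPM with anti-LAIR-1, and 4506 ± 29.6 CPM with anti-CD3 and isotype and 4541 ± 55.8 CPM with anti-CD3 and anti-LAIR-1. The 46 Usp genes summed to 1650.3 ± 20.9, 1624 ± 18.5, 1823 ± 30.6 and 1789 ± 16.9 CPM in the same order. Scaled by library totals instead, the Ube2 sum went from 3516 ± 128 to 4304 ± 63.8 CPM with isotype, but the Usp sum from 1719 ± 32.3 to 1741 ± 31.9 CPM, and the Usp libraries overlapped (1682 to 1742 against 1704 to 1761 CPM). The ratio of Ube2 to Usp counts, which needs no normalization, lay between 1.97 and 2.13 in the 6 unstimulated libraries and between 2.41 and 2.60 in the 6 libraries with anti-CD3, so that the ranges did not overlap. In bulk RNA of this kind, fewer cells of a type and less RNA per cell cannot be told apart.

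**Figure D1:**
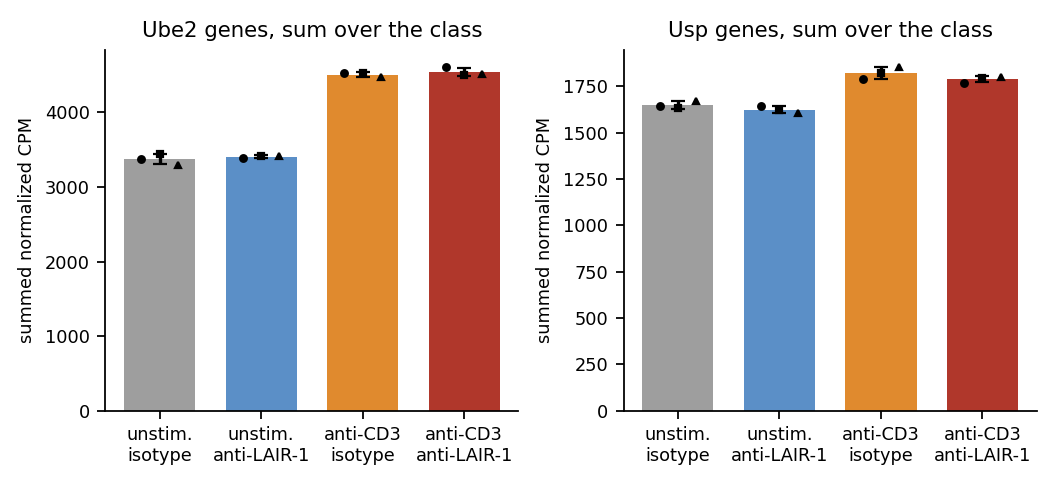
Summed normalized CPM of the 32 Ube2 genes (left) and the 46 Usp genes (right) in the 4 conditions. Bars are means, error bars the SD over 3 mice, and points the libraries (circle, square and triangle for mouse 1, 2 and 3); the Ube2 sum stood at 3374 and 4506 CPM without and with anti-CD3 (isotype), the Usp sum at 1650.3 and 1823 CPM.

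A few abundant genes made up most of the Ube2 difference. Over the members, increases with anti-CD3 and isotype summed to 1742 CPM and decreases to -609.9 CPM (net 1132 CPM), and Ube2l3 alone added 275 CPM, Ube2d3 255, Ube2m 207 and Ube2n 165 CPM. Ube2l3 and Ube2d3 are overlapped on the other strand by counted genes, Ydjc and 4930539J05Rik. The strand used in counting is not given in the sources used here, so reads of these pairs cannot be told apart. Among the Usp genes, increases of 499 CPM and decreases of -327 CPM left a net difference of 172.5 CPM, in which Usp14 added 139.6 CPM. These sums use TMM scaling, and by library totals the net difference was 788 CPM for the Ube2 and 21.7 CPM for the Usp genes.

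Low counts kept some members out of the tests. With isotype, 28 Ube2 and 34 Usp genes passed the filter on low counts. Ube2e1, Ube2e2, Ube2l6, Usp17la, Usp27x, Usp29, Usp43, Usp44, Usp46 and Usp53 passed it in no comparison, and had at most 11 counts in any library. Ube2c, Usp2, Usp20, Usp35, Usp49 and Usp6nl passed it in some of the other comparisons only.

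Which conjugating enzymes and proteases change with T cell receptor stimulation was answered by the libraries with isotype. Of the 28 Ube2 genes tested, 19 were higher with anti-CD3, 5 were lower and 4 did not pass the threshold (edgeR quasi-likelihood test, Benjamini-Hochberg adjusted p under 0.05). Of the 34 Usp genes, 10 were higher, 11 were lower and 13 did not pass. Stimulation moved much of the transcriptome: of 8433 protein-coding genes tested, 71.3% were called, 35.6% higher and 35.7% lower. Of the Usp genes tested 29.4% were higher and 32.4% lower, close to the background, and of the Ube2 genes 67.9% were higher and 17.9% lower. The median log2 fold change (anti-CD3 over unstimulated) was 0.83 over the Ube2 genes, -0.018 over the Usp genes and -0.014 over all protein-coding genes. By mouse the Ube2 median was 0.71, 0.75 and 0.69 and the Usp median 0.077, 0.039 and -0.017. Without Ube2cbp, Ube2v1 and Ube2v2, 16 of 25 Ube2 genes were higher and 5 lower, and without Usp39, 9 of 33 Usp genes were higher and 11 lower. With upper quartile scaling, which moved the median of all protein-coding genes to -0.19, the Usp genes divided into 7 higher and 13 lower. The difference between the classes is a description, since the genes of a class are not replicates of a condition.

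**Figure D2:**
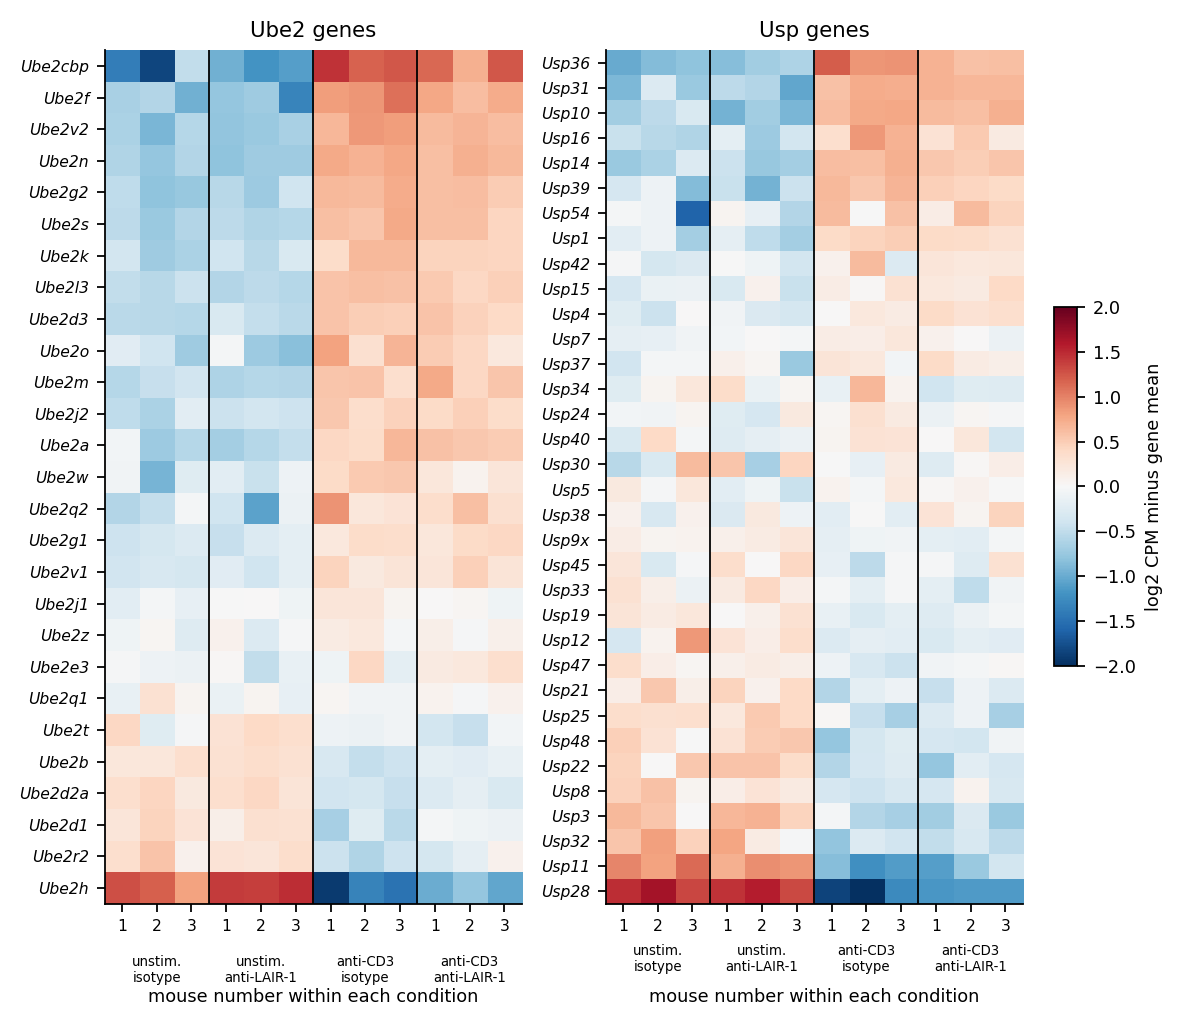
Log2 CPM of the tested Ube2 (left; 1 gene is not shown) and Usp (right) genes in the 12 libraries, minus the gene's mean over them, ordered by the log2 fold change of anti-CD3 with isotype; columns are mouse 1, 2 and 3 in each condition, red is above and blue below the gene's mean, and colours stop at 2 and -2. Most Ube2 rows turn from blue to red with anti-CD3 (19 of 28 called higher), while the Usp rows divide (10 of 34 higher, 11 lower).

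The 3 genes that build Lys63-linked chains all rose with anti-CD3, beside 35.6% of all protein-coding genes. Ube2n encodes the only E2 of the list with an active site, and its partners Ube2v1 and Ube2v2 direct it to Lys63. Ube2n stood at 104, 92.3 and 106 CPM in the 3 unstimulated libraries with isotype and at 268, 256 and 271 CPM with anti-CD3, a log2 fold change of 1.36 (SE 0.10, adjusted p = 2.6e-11). Ube2v2 went from 33.4 ± 4.29 to 94.5 ± 7.26 CPM (mean ± SD, n = 3), a log2 fold change of 1.47 (SE 0.14, adjusted p = 1.23e-09). Ube2v1 went from 99.4 ± 2.18 to 156 ± 15.0 CPM, a log2 fold change of 0.62 (SE 0.11, adjusted p = 2.46e-05). None of the 3 genes had an unstimulated library as high as its lowest stimulated library. Such a separation was usual: the groups did not overlap for 24 of the 28 Ube2 and 23 of the 34 Usp genes tested. The share without overlap over all protein-coding genes is not given here, but 71.3% of them were called in this comparison.

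Both E2 genes for NEDD8 were higher as well, beside 35.6% of all protein-coding genes. Ube2f encodes an E2 for this small protein, which is joined to cullins and so switches on cullin-RING ligases. It stood at 24.2, 25.3 and 19.4 CPM without and 68.6, 70.6 and 82.0 CPM with anti-CD3, a log2 fold change of 1.64 (SE 0.15, adjusted p = 1.31e-09), the highest among the members that encode an E2. Ube2m, the other E2 for NEDD8, had a log2 fold change of 0.92.

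Of the E2 genes that act at the endoplasmic reticulum membrane in the disposal of misfolded proteins, all 4 were called higher. The share over all protein-coding genes was 35.6%. Ube2g2 rose from 24.9 ± 2.83 to 64.8 ± 2.70 CPM, a log2 fold change of 1.33 (SE 0.15, adjusted p = 2.52e-08). Ube2g1 and Ube2j2 followed with 0.63 and 0.88. The call of Ube2j1, with a log2 fold change of 0.28 (SE 0.11, adjusted p = 0.0320), was the exception in strength: it passed in 8 of 16 alternative fits, and was lost without mouse 1 or 3 of the unstimulated or mouse 1 or 2 of the stimulated libraries (adjusted p = 0.103, 0.0670, 0.0698 and 0.0712).

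Other genes of the class that rose included Ube2s and Ube2k. Ube2s, the E2 that extends Lys11-linked chains for the anaphase promoting complex, had 57.9, 49.8 and 55.5 CPM without and 127, 123 and 142 CPM with anti-CD3, a log2 fold change of 1.23 (SE 0.12, adjusted p = 3.11e-09). Its partner at the same complex, Ube2c, did not pass the filter. The exons of Ube2s overlap those of the ribosomal protein gene Rpl28 on the other strand, and since the strand used in counting is not given in the sources used here, reads of the pair cannot be told apart. Ube2k, an E2 that builds Lys48-linked chains, rose from 80.5 ± 10.4 to 176 ± 19.4 CPM, a log2 fold change of 1.09 (SE 0.12, adjusted p = 2.63e-08).

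Ube2cbp had the highest log2 fold change of the tested members in this comparison. It stood at 2.98, 2.04 and 5.93 CPM without and 24.2, 19.9 and 20.7 CPM with anti-CD3, a log2 fold change of 2.59 (SE 0.31, adjusted p = 7.88e-08). These levels rested on 9, 5 and 11 counts in the unstimulated libraries, against 80, 94 and 129 with anti-CD3. Ube2cbp passed the filter on low counts through the stimulated libraries, where it was high, so the size of its fold change is uncertain. It had no value in the fit with at least 10 counts in every library.

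Against this direction, 5 conjugating enzymes fell. The largest decrease was that of Ube2h (chr6:30211289-30304539, minus strand, GRCm38), which encodes the E2 of the CTLH ligase complex. Its level was 226, 211 and 161 CPM in the unstimulated libraries with isotype and 24.2, 36.2 and 32.8 CPM with anti-CD3, a log2 fold change of -2.70 (SE 0.15, adjusted p = 7.19e-14), or 6.51-fold lower. Ube2r2, a partner of SCF-type ligases, fell from 186 ± 31.2 to 105 ± 7.83 CPM, a log2 fold change of -0.86 (SE 0.12, adjusted p = 7.42e-07). The other 3, Ube2d1, Ube2d2a and Ube2b, each have a paralogue that rose and are described with it. All 5 kept their call in each of the 16 alternative fits that gave a value.

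The proteases changed in both directions, and the list of nucleolar and splicing genes held the strongest rise. Usp36 (chr11:118259651-118290244, minus strand), a nucleolar deubiquitinase, stood at 27.8, 30.6 and 31.8 CPM without and 131, 104 and 105 CPM with anti-CD3, a log2 fold change of 1.88 (SE 0.14, adjusted p = 2.68e-11). Usp39 rose from 26.9 ± 6.91 to 55.0 ± 2.78 CPM, a log2 fold change of 0.97 (SE 0.16, adjusted p = 1.32e-05). Usp42, the remaining gene of the list, had a log2 fold change of 0.37 (SE 0.25, adjusted p = 0.185) and did not pass.

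Usp14, which binds the proteasome and trims chains there, rose as well. Its level was 95.0, 103 and 132 CPM without and 245, 242 and 262 CPM with anti-CD3, a log2 fold change of 1.16 (SE 0.11, adjusted p = 3.24e-09). The other tested gene of its list, Usp5, which takes apart free chains, had a log2 fold change of -0.09 (SE 0.12, adjusted p = 0.543) and did not pass. Exons of Usp14 overlap the other strand of Thoc1, and those of Usp16 the other strand of Cct8, with the same limit as for Ube2s.

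Among the 9 tested proteases of the list for T cell signalling and NF-kB, 3 were higher and 3 lower. Over all protein-coding genes the shares were 35.6% and 35.7%. Usp10 rose from 36.6 ± 5.17 to 85.3 ± 5.08 CPM, a log2 fold change of 1.21 (SE 0.14, adjusted p = 3.38e-08), and Usp31 from 20.6 ± 4.87 to 51.2 ± 3.02 CPM, a log2 fold change of 1.29 (SE 0.17, adjusted p = 4.96e-07). Usp8, which acts on ubiquitinated receptors at endosomes, fell from 34.7 ± 6.49 to 20.5 ± 0.732 CPM, a log2 fold change of -0.81 (SE 0.18, adjusted p = 0.000372). The remaining calls, Usp4, Usp11 and Usp25, belong to paralogue groups.

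Of the 9 tested proteases of chromatin and DNA repair, 3 were higher and 5 lower, beside 35.6% and 35.7% of all protein-coding genes. Usp28 (chr9:48985375-49042517, plus strand), known for stabilising MYC and for a part in the DNA damage response, had the largest decrease of the tested members in this comparison. It went from 62.2, 70.6 and 56.1 CPM to 5.74, 4.24 and 8.85 CPM, a log2 fold change of -3.31 (SE 0.21, adjusted p = 1.89e-12), or 9.92-fold lower. Usp22, the deubiquitinase of the SAGA complex, fell from 31.2 ± 5.88 to 18.5 ± 2.22 CPM with a log2 fold change of -0.76 (SE 0.19, adjusted p = 0.00121). Usp3 and Usp16 both remove ubiquitin from histone H2A, and moved apart: Usp3 fell from 30.4 ± 6.79 to 16.9 ± 4.27 CPM, a log2 fold change of -0.94 (SE 0.21, adjusted p = 0.000474), and Usp16 rose from 23.7 ± 1.30 to 54.4 ± 10.1 CPM, a log2 fold change of 1.17 (SE 0.17, adjusted p = 1.46e-06).

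Of the 4 tested proteases of organelle membranes, 0 were higher and 2 lower, beside 35.6% and 35.7% of all protein-coding genes. Usp32 stood at 16.2, 19.6 and 15.1 CPM without and 6.05, 8.90 and 8.20 CPM with anti-CD3, a log2 fold change of -1.15 (SE 0.25, adjusted p = 0.000277). Outside the lists, Usp48 fell from 50.9 ± 8.46 to 31.0 ± 5.83 CPM, a log2 fold change of -0.75 (SE 0.16, adjusted p = 0.000322). Usp54 was called higher, with a log2 fold change of 0.78 (SE 0.34, adjusted p = 0.0469), but at 7.28, 6.94 and 2.16 CPM against 11.8, 7.42 and 11.4 CPM it passed in only 7 of 15 alternative fits. Its call was lost without mouse 2 or 3 of the unstimulated libraries or mouse 1 or 3 of the stimulated ones (adjusted p = 0.0526, 0.203, 0.102 and 0.130), and an antisense gene in the file, 1810062O18Rik, overlaps it.

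**Figure D3:**
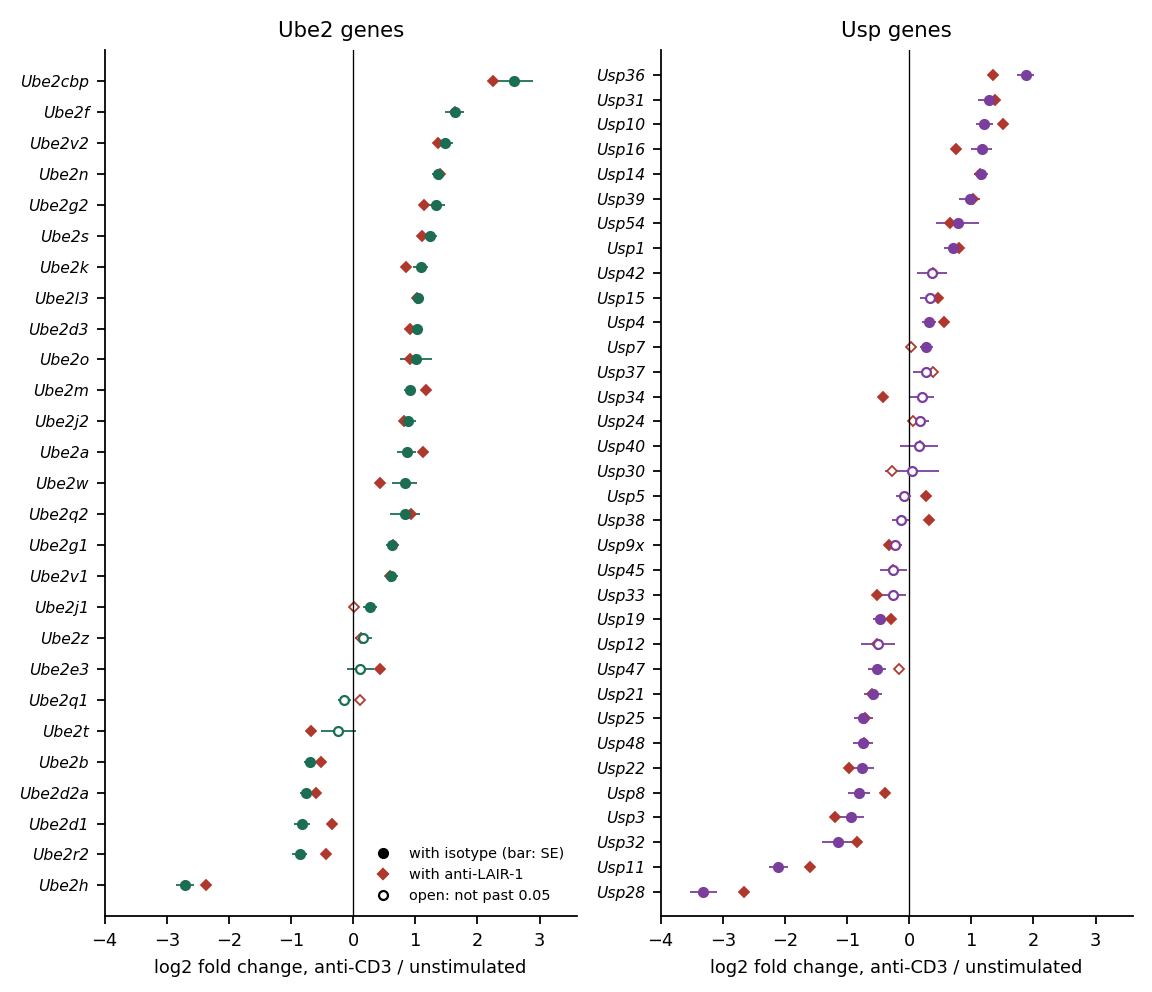
Log2 fold change of anti-CD3 over unstimulated for the tested Ube2 (left; 1 gene is not shown) and Usp (right) genes, with isotype (circles, with the SE as bars) and with anti-LAIR-1 (diamonds); filled symbols passed an adjusted p of 0.05 and open ones did not. The fold changes with isotype run from -2.70 (Ube2h) to 2.59 (Ube2cbp) and from -3.31 (Usp28) to 1.88 (Usp36), and the diamonds lie near the circles for most genes.

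Closely related genes did not always move together, as the plot of paralogues shows. Ube2a and Ube2b are the mammalian counterparts of yeast RAD6 and act in histone H2B ubiquitination and DNA damage tolerance. Ube2a stood at 61.2, 38.4 and 42.6 CPM in the unstimulated libraries with isotype and at 85.0, 82.0 and 101 CPM with anti-CD3, a log2 fold change of 0.86 (SE 0.15, adjusted p = 2.17e-05). Ube2b stood at 377, 379 and 406 CPM and 259.7, 233 and 243 CPM, a log2 fold change of -0.70 (SE 0.09, adjusted p = 2.97e-07). The groups did not overlap for either gene, which was usual: the same held for 24 of the 28 Ube2 and 23 of the 34 Usp genes tested. Of all protein-coding genes, 71.3% were called in this comparison.

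The UBE2D enzymes, which serve many RING ligases, divided too. Ube2d3 rose from 234, 232 and 228 CPM to 506, 479.6 and 474 CPM, a log2 fold change of 1.04 (SE 0.09, adjusted p = 2.78e-10). A counted antisense gene, 4930539J05Rik, overlaps Ube2d3, with the same limit as for Ube2s. Ube2d2a fell from 408, 437 and 373 CPM to 250.3, 253 and 236 CPM, a log2 fold change of -0.76 (SE 0.09, adjusted p = 1.17e-07). Ube2d1 fell likewise, from 89.7, 104 and 92.2 CPM to 47.8, 64.2 and 52.4 CPM, a log2 fold change of -0.83 (SE 0.13, adjusted p = 4.93e-06). Reads that mapped equally well to several places had been discarded, so that sequence shared within the family adds to the count of no member. The annotation also holds the pseudogenes Ube2d-ps, Ube2l3-ps1 and Ube2n-ps1, which are not among the genes counted.

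**Figure D4:**
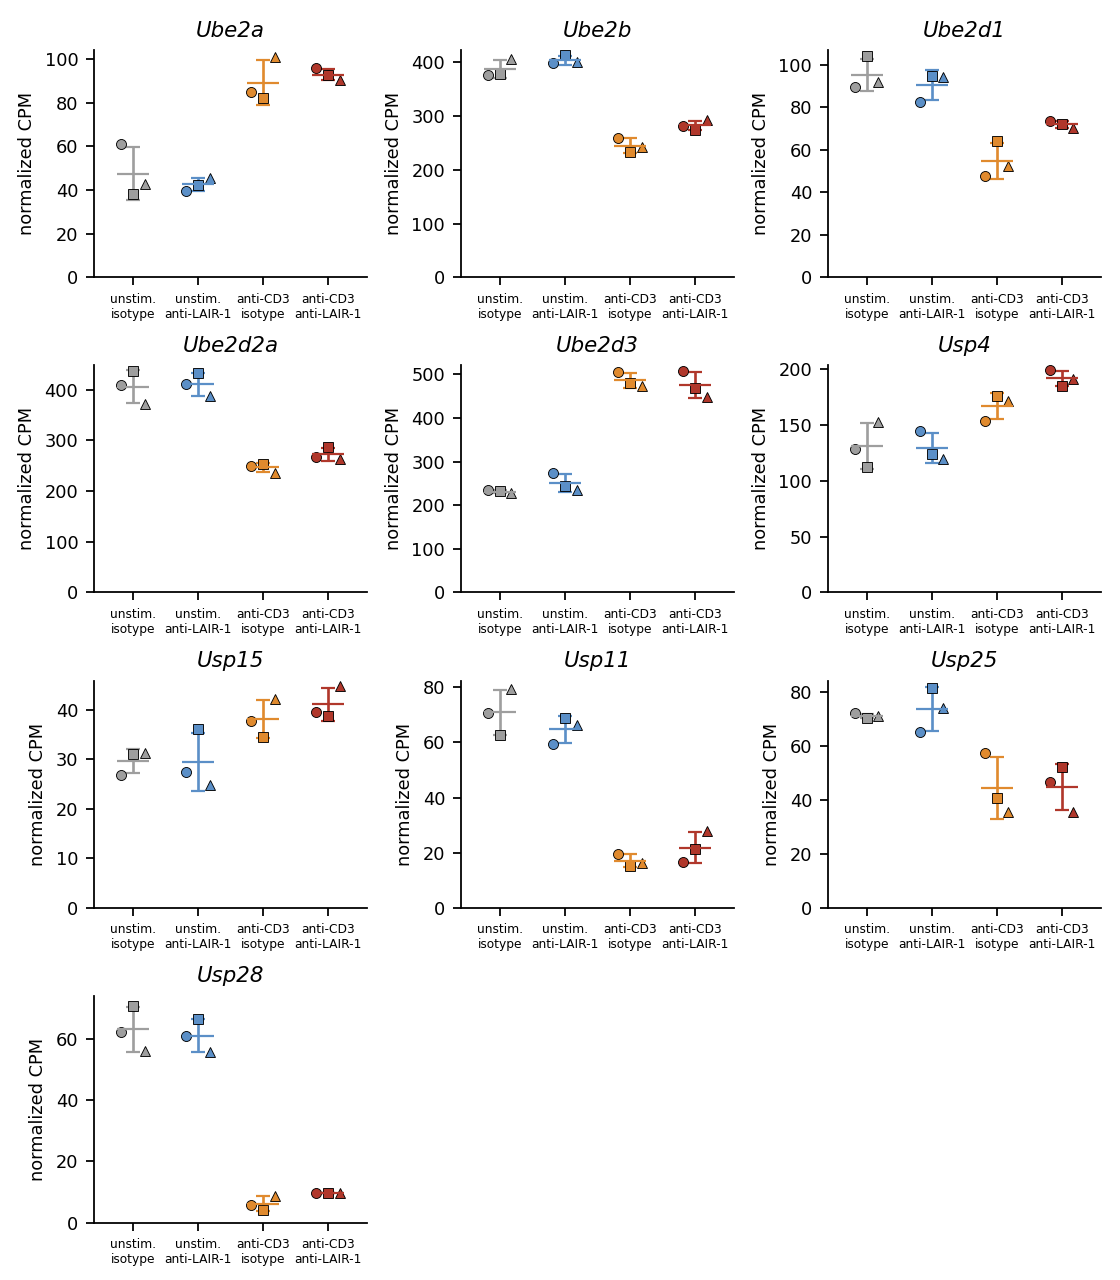
Normalized CPM of paralogous Ube2 and Usp genes in the 4 conditions; symbols are the libraries (circle, square and triangle for mouse 1, 2 and 3), horizontal lines the means and error bars the SD (n = 3), and each panel has its own axis from 0. With anti-CD3 and isotype, Ube2a and Ube2d3 stand above and Ube2b, Ube2d1 and Ube2d2a below the unstimulated libraries, and Usp11 falls from a mean of 71.0 to 17.0 CPM while Usp4 and Usp15 do not fall.

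Usp4, Usp11 and Usp15 form a family of similar proteases, and Usp11 was its gene that fell. Usp11 (chrX:20703906-20720539, plus strand) went from 70.8, 62.9 and 79.3 CPM to 19.7, 15.0 and 16.4 CPM, a log2 fold change of -2.10 (SE 0.16, adjusted p = 3e-11). Usp4 was higher, at 128, 112 and 153 CPM against 154, 176 and 171 CPM, with a log2 fold change of 0.32 (SE 0.11, adjusted p = 0.0143). The call held in 13 of 16 alternative fits. It was lost without mouse 2 of the unstimulated libraries (adjusted p = 0.102), with the upper quartile (0.244) and with thinned libraries (0.234). Usp15 stood at 29.7 ± 2.51 and 38.2 ± 3.89 CPM, with a log2 fold change of 0.34 (SE 0.16, adjusted p = 0.0606), and did not pass. Usp25 and Usp28, another pair of relatives, both fell, but Usp25 only to 44.6 ± 11.4 from 71.3 ± 0.774 CPM, a log2 fold change of -0.74 (SE 0.15, adjusted p = 0.000153). In 2 further pairs a call was made for 1 gene: Ube2q2 rose with a log2 fold change of 0.83 (SE 0.24, adjusted p = 0.00351) while Ube2q1 had -0.14 (SE 0.11, adjusted p = 0.239), and Usp16 rose while Usp45 had -0.25 (SE 0.22, adjusted p = 0.310).

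The same question could be asked in the other 6 libraries, in which both the unstimulated and the stimulated cells had anti-LAIR-1; these share mice but no library with the isotype comparison. Here 19 of 28 Ube2 genes were higher and 6 lower, and 12 of 38 Usp genes were higher and 15 lower, against 72.8% of 8715 protein-coding genes called (36.8% higher, 36.0% lower). The medians were 0.81 over the Ube2 genes, 0.047 over the Usp genes and -0.022 over all protein-coding genes. Of the 24 Ube2 genes called with isotype, 18 were higher and 5 lower in both comparisons, and of the 21 Usp genes, 9 were higher and 10 lower in both; 0 were called in opposite directions. For comparison, 91.1% of the 5981 protein-coding genes called with isotype and tested in both were called in the same direction with anti-LAIR-1. Across genes, the log2 fold changes of the 2 comparisons correlated with r = 0.976 over 28 Ube2 genes and 0.959 over 34 Usp genes, which is a description across genes from the same mice. The Usp genes lower with anti-LAIR-1 numbered 9 with DESeq2 and the replicate block in place of 15, and upper quartile scaling, with a median of -0.23 over all protein-coding genes, divided the Usp genes into 8 higher and 17 lower.

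Some calls were made in 1 of the 2 comparisons. Among the genes tested in both, Ube2j1, Usp7 and Usp47 were called with isotype only. Ube2e3, Ube2t, Usp5, Usp9x, Usp12, Usp15, Usp33, Usp34 and Usp38 were called with anti-LAIR-1 only. Usp35 did not pass the filter with isotype, and was lower with anti-CD3 and anti-LAIR-1. Its log2 fold change of -2.74 (SE 0.48, adjusted p = 4.8e-05) was the lowest of the Usp genes there. It rested on 6, 4 and 3 counts in the stimulated libraries. These names were picked after their values were seen. Usp28 went from 60.7, 66.3 and 55.7 CPM to 9.58, 9.80 and 9.75 CPM with anti-LAIR-1, a log2 fold change of -2.65 (SE 0.14, adjusted p = 3.61e-12). Ube2h went from 246, 242 and 258 CPM to 46.1, 54.1 and 44.5 CPM, a log2 fold change of -2.37 (SE 0.10, adjusted p = 5.47e-14). Usp11 had a log2 fold change of -1.60 (SE 0.15, adjusted p = 1.76e-08), Usp36 of 1.35 (SE 0.11, adjusted p = 1.95e-09), Ube2n of 1.40 (SE 0.08, adjusted p = 1.62e-11) and Ube2f of 1.64 (SE 0.15, adjusted p = 6.79e-09). The opposite directions of the paralogues were seen here as well: Ube2a had 1.12 against -0.52 for Ube2b, Ube2d3 had 0.91 against -0.33 for Ube2d1 and -0.60 for Ube2d2a, and Usp4 had 0.57 and Usp15 0.47 against -1.60 for Usp11, all 8 past the threshold. Of these, the call of Ube2d1 was lost with DESeq2 and the replicate block (adjusted p = 0.0573) and without a filter on low counts (0.0540), and that of Usp15 with the upper quartile (0.106) and with thinned libraries (0.0678).

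Whether LAIR-1 ligation alters these genes in stimulated cells was asked by comparing anti-LAIR-1 with isotype among the libraries with anti-CD3, which share libraries with both comparisons above. Of 29 Ube2 genes tested, 2 were higher (Ube2h and Ube2d1) and 0 lower, and of 37 Usp genes, 0 were higher and 1 was lower (Usp36). Of the 8530 protein-coding genes tested 5.80% were called, 3.93% higher and 1.88% lower, so that the members' share was near the background. The median log2 fold change (anti-LAIR-1 over isotype) was -0.046 over the Ube2 genes, -0.023 over the Usp genes and 0.0039 over all protein-coding genes. At an unadjusted p under 0.05 stood 7 Ube2 and 8 Usp genes, beside 18.9% of all protein-coding genes. The groups did not overlap for 10 Ube2 and 9 Usp genes, beside 24.2% of all protein-coding genes. With the mouse as a replicate block in edgeR, 2 Usp genes were lower in place of 1, the added gene being Usp34 (-0.52, adjusted p = 0.0413), and Ube2r2 joined the Ube2 genes that were higher (0.33, adjusted p = 0.0467).

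Ube2h, the conjugating enzyme with the largest decrease under anti-CD3, stood higher with anti-LAIR-1. Its level was 24.2, 36.2 and 32.8 CPM with isotype and 46.1, 54.1 and 44.5 CPM with anti-LAIR-1 in mouse 1, 2 and 3, a log2 fold change of 0.61 (SE 0.14, adjusted p = 0.0139). It was higher in 3 of 3 mice and the groups did not overlap. The call held in 13 of 16 alternative fits, and was lost without mouse 1 of the isotype libraries (adjusted p = 0.0570), without mouse 2 of the anti-LAIR-1 libraries (adjusted p = 0.0875) and with all libraries thinned to the smallest total (adjusted p = 0.189).

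Ube2d1 (chr10:71254980-71285262, minus strand), which fell with anti-CD3, was also higher with anti-LAIR-1. It stood at 47.8, 64.2 and 52.4 CPM with isotype and 73.8, 72.0 and 70.3 CPM with anti-LAIR-1, a log2 fold change of 0.38 (SE 0.11, adjusted p = 0.0486). The groups did not overlap, but the call passed in only 7 of 16 alternative fits. It was lost without mouse 1 or 3 of the isotype libraries (adjusted p = 0.170 and 0.162), without any of the 3 anti-LAIR-1 libraries (0.127, 0.129 and 0.0840), with DESeq2's size factors (0.0520), with DESeq2 without and with the replicate block (0.0696 and 0.244), and with thinned libraries (0.602).

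Usp36, the protease that rose most with anti-CD3, was lower with anti-LAIR-1. Its level was 131, 104 and 105 CPM with isotype and 91.0, 84.7 and 85.4 CPM with anti-LAIR-1, a log2 fold change of -0.37 (SE 0.10, adjusted p = 0.0327). It was lower in 3 of 3 mice, without overlap, and the call held in 11 of 16 alternative fits. It was lost without mouse 1 of the isotype libraries (adjusted p = 0.145), without mouse 2 or 3 of the anti-LAIR-1 libraries (0.113 and 0.0831), with DESeq2 and the replicate block (0.0897) and with thinned libraries (0.267).

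**Figure D5:**
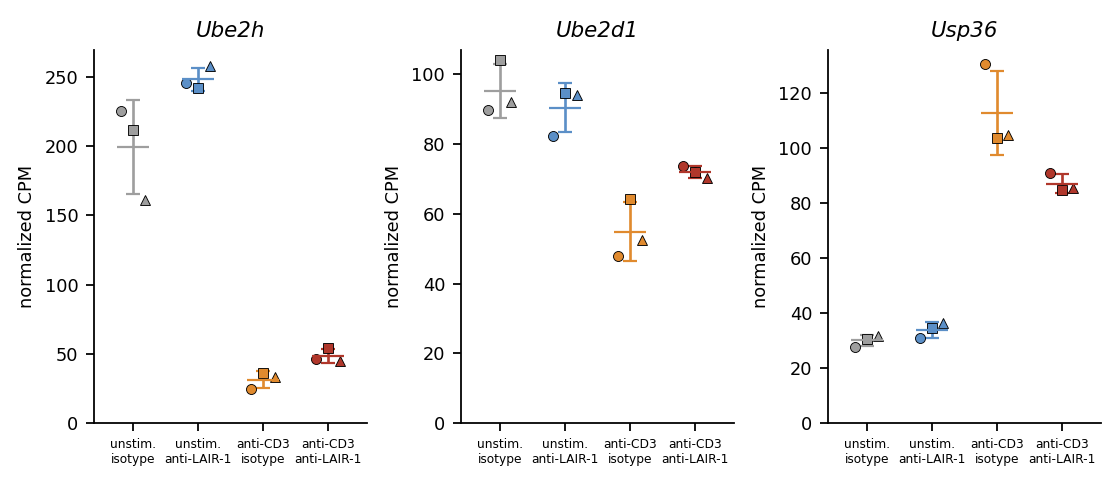
Normalized CPM of Ube2h, Ube2d1 and Usp36 in the 4 conditions; symbols are the libraries (circle, square and triangle for mouse 1, 2 and 3), horizontal lines the means and error bars the SD (n = 3), with each axis from 0. Among the libraries with anti-CD3, Ube2h and Ube2d1 stand higher and Usp36 lower with anti-LAIR-1 (means of 31.1 and 48.2, 54.8 and 72.0, and 113 and 87.0 CPM). The genes were picked by this difference, and the anti-CD3 difference with isotype shares its isotype libraries.

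The mean levels of these 3 genes with both antibodies lay between those with anti-CD3 and isotype and the unstimulated ones. With anti-LAIR-1 the mean of Ube2h was 48.2 CPM, between 31.1 CPM with isotype and 248 CPM in the unstimulated cells with anti-LAIR-1. For Usp36 the mean was 87.0 CPM, between 113 CPM with isotype and 33.9 CPM without anti-CD3. For Ube2d1 it was 72.0 CPM, between 54.8 CPM with isotype and 90.4 CPM without anti-CD3, so that its difference between the antibodies (0.38 on the log2 scale) stood beside anti-CD3 differences of -0.83 in the isotype libraries and -0.33 in those with anti-LAIR-1. The 3 genes were picked by their difference between the antibodies. These values share libraries, so a deviating isotype library moves both differences, and they are given side by side only. Other members that moved strongly with anti-CD3 did not pass: Usp28 had 0.58 (SE 0.25, adjusted p = 0.221) with anti-LAIR-1 over isotype, Ube2f -0.25 (SE 0.10, adjusted p = 0.177) and Ube2r2 0.33 (SE 0.10, adjusted p = 0.0741).

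Without anti-CD3, 0 of 28 Ube2 and 0 of 36 Usp genes differed between anti-LAIR-1 and isotype in edgeR's quasi-likelihood test, as did 0.00% of 8491 protein-coding genes, and DESeq2 called 0 members too. At an unadjusted p under 0.05 stood 1 Ube2 and 1 Usp gene, beside 4.30% of all protein-coding genes, and the groups did not overlap for 2 Ube2 and 2 Usp genes, beside 9.69%. The Ube2 gene was Ube2h, at 226, 211 and 161 CPM with isotype and 246, 242 and 258 CPM with anti-LAIR-1, a log2 fold change of 0.31 (SE 0.11, adjusted p = 0.997) with an unadjusted p of 0.00943 in edgeR. It was higher in 3 of 3 mice and the groups did not overlap, but it did not pass the correction. The Usp gene was Usp5, named after its value was seen, with a log2 fold change of -0.38 (SE 0.14, adjusted p = 0.997). Usp36 stood at 27.8, 30.6 and 31.8 CPM with isotype and 30.8, 34.5 and 36.4 CPM with anti-LAIR-1, higher in 3 of 3 mice with a log2 fold change of 0.18 (SE 0.16, adjusted p = 0.997), which did not pass.

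Whether the anti-LAIR-1 difference itself depended on anti-CD3 was tested as an interaction over all 12 libraries. In edgeR 0 of 28 Ube2 and 0 of 37 Usp genes passed, beside 2.09% of 8908 protein-coding genes, and DESeq2 called 0 members as well; at an unadjusted p under 0.05 stood 3 and 6 genes, beside 12.2%. Usp36 had an interaction of -0.55 (SE 0.18, adjusted p = 0.128) on the log2 scale, Ube2d1 of 0.46 (SE 0.16, adjusted p = 0.163) and Ube2h of 0.30 (SE 0.18, adjusted p = 0.543). A dependence of these 3 anti-LAIR-1 differences on stimulation was therefore not detectable in 3 mice.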

How the data were processed

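Naïve CD8+ T cells of 3 mice in 4 conditions gave 12 CEL-seq libraries. The authors aligned read 2 to the mm10 transcriptome with BWA MEM, discarded reads that mapped equally well to several places, and deposited raw counts per gene symbol; whether molecular identifiers were collapsed, and the strand used in counting, are not given in the sources used here. Totals were 1781218 to 7725545 counts.

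These counts were scaled by TMM, filtered by filterByExpr and compared by the quasi-likelihood F-test of edgeR 4.0.16 in R 4.3.3. The p-values were adjusted by Benjamini-Hochberg over every gene in the test, and 0.05 was the threshold. Each comparison used only its own 6 libraries, the interaction all 12. CPM values were normalized by TMM over the 12 libraries. Of 14323 symbols, 13146 were protein coding in GENCODE M21 (GRCm38), and background shares were counted over these. Replicates of a group differed by 3.82 to 5.62 times the sampling variance, so that no library was counted as a repeat of another. The fits were tested on simulated counts, in which a far smaller share of genes changed than with anti-CD3 here. The simulation therefore does not show their error rates at that share, and no result rests on it. 

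A member was named with values if it passed with 1 direction in all 3 mice and was among the 7 highest or 7 lowest fold changes of its class with anti-CD3 and isotype, if it passed in an anti-LAIR-1 comparison or the interaction, or if it belonged to a paralogue group with at least 2 tested members; members in no test were named only. The values of 1 member and of 1 other listed gene enter the counts and sums but are not reported here. Role and paralogue lists were written by hand. The members and lists were chosen with earlier results of these data known.

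Alternatives were edgeR with the upper quartile or with size factors of DESeq2, the Wald test of DESeq2 1.42.0, the mouse as a block in either tool, no filter, at least 10 counts in every library, all 12 libraries in 1 fit, libraries thinned to 1781218 counts, each library left out in turn and, chosen after seeing the data, mitochondrial genes and Rn45s left out and class sums scaled by library totals. The pairing by mouse comes from the labels, which number the mice, and from the methods, in which the cells of each mouse were divided over the wells. Libraries of the same mouse deviated from their groups with a mean correlation of 0.0271 to 0.0746, by comparison. Promoter sequences are from RefSeq (GRCm38.p6).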

Additional observations from a re-analysis of the deposited data

How the results depend on the processing

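With anti-CD3 and isotype, 18 of the 19 Ube2 and 7 of the 10 Usp genes called higher, and all 5 and 11 called lower, kept the call in each of 16 alternatives that gave a value; the exceptions were Ube2j1, Usp4, Usp7 and Usp54. With anti-CD3 and anti-LAIR-1, 16 of 19 Ube2 and 8 of 12 Usp genes called higher, and 4 of 6 and 8 of 15 called lower, kept the call. There, the Usp genes called lower numbered 15 in the main test, 9 with DESeq2 and the replicate block, and 8 with thinned libraries. The cause was not tested. Ube2j1, not called there, reversed to -0.20 with the upper quartile, -0.031 with at least 10 counts, and -0.0095 without mouse 3 of the unstimulated libraries (-0.0095 to 0.070 with a library left out). Scaling by library totals, chosen after seeing the data, moved the summed difference with anti-CD3 from 1132 to 788 CPM (isotype) and from 1133 to 813 CPM (anti-LAIR-1) for the Ube2 genes, and from 172.5 to 21.7 CPM and from 165 to 28.5 CPM for the Usp genes.

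For anti-LAIR-1 with anti-CD3, the Ube2 genes called higher numbered 2 in the main test, 3 (with Ube2r2) without a filter or with the replicate block in edgeR, 1 with DESeq2's size factors, 1 with DESeq2, 1 with DESeq2 and the replicate block, 0 with thinned libraries, and 0 to 2 with a library left out. Usp genes called higher numbered 0 in the main test, 1 (Usp38) with the upper quartile, without a filter or with at least 10 counts, and 0 to 1 with a library left out. Usp genes called lower numbered 1 in the main test, 2 with the replicate block in edgeR or without a filter, 0 with DESeq2 and the replicate block or with thinned libraries, and 0 to 1 with a library left out. The replicate block in edgeR changed no call of a named gene that is not given beside its result. Leaving out mitochondrial genes and Rn45s kept the 3 calls of this comparison. Depth limits the genes of few counts: 10 of the 78 were in no test.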

Other observations

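Genes of the ubiquitin system outside the Ube2 and Usp classes were counted from hand-written lists, and those named here were picked after their values were seen. With anti-CD3 and isotype, 6 of 11 tested genes for ubiquitin and E1 enzymes were higher and 3 lower (edgeR's quasi-likelihood test, beside 35.6% and 35.7% of all protein-coding genes). Uba1, the main ubiquitin E1, went from 332 ± 38.4 to 470.3 ± 29.8 CPM (log2 fold change 0.47), Uba6, an E1 for ubiquitin and FAT10, from 13.2 ± 1.65 to 33.7 ± 5.37 CPM (1.35), and Uba7, the E1 for ISG15, from 12.4 ± 3.33 to 2.43 ± 1.34 CPM (-2.43). Of 5 E2 genes under other names, 2 were higher and 2 lower, beside 35.6% and 35.7% of all protein-coding genes. Cdc34, the E2 of SCF ligases and a relative of Ube2r2, rose from 117 ± 10.7 to 359 ± 7.99 CPM (1.58), while Ube2r2 fell.

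Of 25 tested deubiquitinases of other families, 11 were higher and 8 lower with anti-CD3 and isotype. The shares over all protein-coding genes were 35.6% and 35.7%. Among those that rose, Psmd14 of the proteasome lid went from 119.96 ± 15.2 to 349 ± 16.1 CPM (1.51), Uchl5, also bound to the proteasome, from 29.3 ± 5.60 to 94.3 ± 2.92 CPM (1.63), and Cops5 of the COP9 signalosome, which removes NEDD8, from 37.3 ± 5.79 to 90.8 ± 6.32 CPM (1.23). Cyld and Tnfaip3, which restrain NF-kB signalling, fell from 63.9 ± 7.58 to 32.0 ± 1.13 CPM (-1.02) and from 75.4 ± 2.40 to 40.1 ± 4.94 CPM (-0.93). With anti-CD3, Uchl5 was the only gene of these 3 lists that differed between anti-LAIR-1 and isotype (log2 fold change -0.33, adjusted p = 0.0350), among 40 tested.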
